A study of Mus musculus with 6 samples.

Results

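The genes described here are the 10 that are most often used to tell hippocampal interneurons apart. They are the neuropeptide genes Sst, Npy, Vip, Cck, Tac1 and Penk, the calcium-binding protein genes Pvalb and Calb2, the cannabinoid receptor gene Cnr1, and Reln, which encodes the secreted glycoprotein reelin. They were taken by name from a table of 28324 genes, and all 10 had UMIs (unique molecular identifiers, each standing for 1 captured transcript). The table came from Drop-Seq, a droplet method that reads the 3′ ends of transcripts of single cells, on dissociated hippocampus of 6 mice aged 10 weeks. All 6 mice carried the APPswe and PSEN1dE9 transgenes of the APP/PS1 line, of which 3 were given an antisense oligonucleotide (the ASO mice) and 3 were given phosphate buffered saline (the PBS mice). The study's title names IDOL, the product of Mylip, as the target. Mice without the transgenes and mice given a control oligonucleotide were not analysed here, and neither the dose nor the sequence of the ASO is given in the sources used.

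Interneurons are inhibitory neurons that release GABA, and in the hippocampus they fall into types that differ in the peptides they co-release, the calcium-binding proteins they hold and the layer their axons reach. Sst marks cells that contact distal dendrites, Pvalb marks fast-spiking cells that contact cell bodies, Vip and Calb2 mark many cells that contact other interneurons, and Cck and Cnr1 mark basket cells whose output endocannabinoids reduce. Npy and Reln are found in neurogliaform and related cells and in part of the Sst cells. Outside interneurons, Cajal-Retzius neurons secrete reelin, many pyramidal neurons hold Cck, and dentate granule neurons can express Penk.

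After removal of 207 doublets, 12616 cells remained, with 2822, 2099 and 1751 cells in the ASO mice and 1821, 2013 and 2110 cells in the PBS mice. These held 3150332, 2352782 and 2005768 UMIs in the ASO mice and 2127919, 2256386 and 2433090 UMIs in the PBS mice. Of 12811 cell barcodes, 8 occurred in more than 1 mouse. Mylip stood at 38.7, 30.2 and 33.9 CPM (the share of UMIs on a scale of 1e6) in ASO mice, against 60.2, 70.0 and 74.8 CPM in PBS mice, so the groups did not overlap (log2 fold change -0.99, SE 0.157, edgeR adjusted p = 0.0527).

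The authors' class Interneuron held 105 cells, of which 28, 22 and 16 came from the ASO mice and 12, 13 and 14 from the PBS mice. That was 0.992%, 1.05% and 0.914% of the cells of the ASO mice and 0.659%, 0.646% and 0.664% of the cells of the PBS mice, without overlap. This was not particular to the class. The shares of dentate and Cajal-Retzius cells were lower in each ASO mouse than in each PBS mouse, and that of mural cells was higher, by a narrow margin. The name was checked against marker genes. A UMI of Gad1, Gad2 or Slc32a1, which encode the enzymes and the vesicle transporter for GABA, was present in 92 of the 105 cells (87.6%), and a UMI of a general neuron marker in all 105. Slc17a7 and Neurod6, which define excitatory neurons, were at 0 in the class, although 30 cells had a UMI of another excitatory marker. Ttr, a transcript of the choroid plexus that was found in cells of all kinds here, gave 80.0% of the Interneuron cells a choroid plexus marker. The class did not hold every cell with GABA genes, because 234 cells of the neuron classes together had a UMI of Gad1, Gad2 or Slc32a1, and 39.3% of these were Interneuron cells. Most of the others were dentate neurons, where 17 of the 174 cells with Cck and 100 of the 948 without it had such a UMI. Whether any of the cells outside the class were interneurons was not tested.

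The 300 bases around the transcription start (250 before and 50 after) are shown for 4 of the genes, because the results below turn on their cell classes: Sst and Vip, which shared no cell, Cck, which had its highest level in a class of excitatory neurons, and Reln, which had its highest level in Cajal-Retzius neurons. The sequences are from RefSeq on build GRCm38.p6, 5′ to 3′ on the strand of the gene, and they were found for 8 of the 10 genes. Capitals mark matches to TGACGTCA, known from work on the rat Sst gene as a cAMP response element, or to its half-site TGACG on either strand (CGTCA on the printed one). TGACGTCA contains the half-site on both strands.
Sst, chr16:23890795-23891094, minus strand: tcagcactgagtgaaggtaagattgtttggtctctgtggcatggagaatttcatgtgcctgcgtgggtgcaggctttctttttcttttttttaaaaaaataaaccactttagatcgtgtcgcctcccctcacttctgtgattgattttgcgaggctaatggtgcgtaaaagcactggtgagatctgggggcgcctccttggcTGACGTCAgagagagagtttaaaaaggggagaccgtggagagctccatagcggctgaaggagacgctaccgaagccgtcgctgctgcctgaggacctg
Vip, chr10:5638968-5639267, plus strand: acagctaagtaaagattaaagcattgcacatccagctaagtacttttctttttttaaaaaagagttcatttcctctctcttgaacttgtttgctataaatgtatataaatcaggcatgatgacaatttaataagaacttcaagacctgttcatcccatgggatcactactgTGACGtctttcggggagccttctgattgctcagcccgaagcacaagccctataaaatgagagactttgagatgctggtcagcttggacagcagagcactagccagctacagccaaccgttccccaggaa
Cck, chr9:121495645-121495944, minus strand: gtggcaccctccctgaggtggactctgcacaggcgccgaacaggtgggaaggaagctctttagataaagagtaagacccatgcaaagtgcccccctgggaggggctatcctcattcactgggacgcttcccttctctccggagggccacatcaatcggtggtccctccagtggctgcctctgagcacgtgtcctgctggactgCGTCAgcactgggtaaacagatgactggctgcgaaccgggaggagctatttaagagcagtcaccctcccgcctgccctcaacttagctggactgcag
Reln, chr5:22344656-22344955, minus strand: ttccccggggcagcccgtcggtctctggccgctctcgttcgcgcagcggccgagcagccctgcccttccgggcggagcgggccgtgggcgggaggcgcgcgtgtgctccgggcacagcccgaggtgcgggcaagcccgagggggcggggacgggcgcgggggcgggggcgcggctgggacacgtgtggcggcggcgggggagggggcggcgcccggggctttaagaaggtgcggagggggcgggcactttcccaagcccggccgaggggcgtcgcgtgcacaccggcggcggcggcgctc
In the reference annotation of GRCm38, Sst spans chr16:23889573-23890958, Vip chr10:5639218-5647617, Cck chr9:121489824-121495694 and Reln chr5:21884454-22344702, and Reln overlaps Gm10475, Gm16110, Gm16111 and Gm16112 on the opposite strand and Dnaja1-ps, Gm19666 and Gm16113 on its own. Its counts may include theirs, those of the last 3 also where strand is used. Among the 8 genes Sst held the full motif, with its first base 48 bases before the start. Vip and Cck held 1 half-site each, 79 and 47 bases before the start, and Tac1 held 2. The full motif was present in 588 of 32851 promoters of this length (1.79%) and the half-site on either strand in 6837 (20.81%). Npy, Pvalb, Cnr1 and Reln had no match in their windows. The Reln window was 80.7% G or C and held 47 CpG dinucleotides, against 41.7% and 4 in the Vip window.

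In the Interneuron class, 2 sets of genes rarely met in a cell, with Sst, Npy and Reln in one and Vip, Calb2 and Penk in the other, and Cnr1 occurred beside members of both. Of the 105 cells, 46 held Sst, Npy or Reln, 27 held Vip, Calb2 or Penk, and 3 held genes of both sets. Within a set most cells held part of it, since all of Sst, Npy and Reln were present in 2 of the 46 cells and all of Vip, Calb2 and Penk in 4 of the 27. These sets were formed after the counts of cells were seen, and they are a description without a test. The classes were made by the authors from the same counts.

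**Figure D1:**
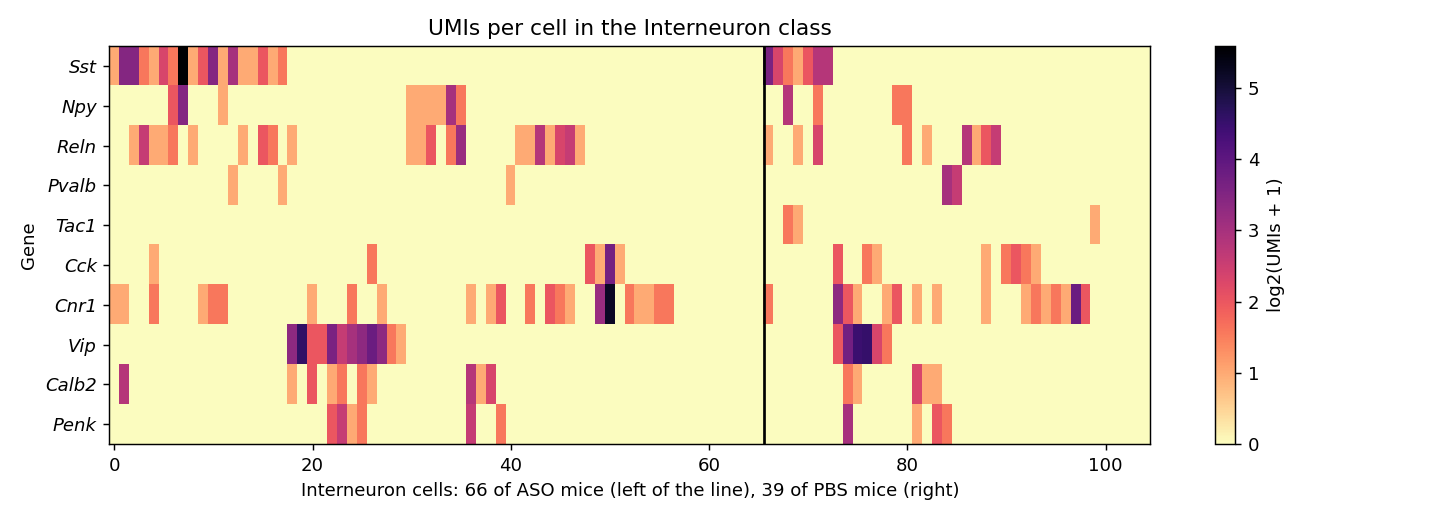
Columns are the 105 Interneuron cells, 66 of ASO mice left of the line and 39 of PBS mice right of it, each ordered by the genes they hold. Rows are the 10 genes, and the colour is log2(UMIs + 1). No column has UMIs of both Sst and Vip, and the Vip columns continue downwards into Calb2 and Penk.

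Sst, which encodes somatostatin, had 140 UMIs in 25 of the 105 cells (23.8%). Vip, which encodes vasoactive intestinal peptide, had 159 UMIs in 18 cells (17.1%). No cell held both, and 0 of 105 cells allows a share of up to 2.86%. The Vip signal was concentrated, with a median of 8 UMIs per cell that held it and 1 cell at a single UMI, so that a Vip cell was seldom decided by 1 molecule. The Sst cells had a median of 3 UMIs, and 1 cell of ASO replicate 2 alone held 47 of the 140 Sst UMIs together with 10 Npy UMIs.

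Reln was the most frequent companion of Sst. A Reln UMI was present in 12 of the 25 Sst cells (48.0%), against 19 of the 80 cells without Sst (23.8%), and such cells came from all 6 mice. Joint detection was counted without thinning. The cells differed in depth, with a median of 1380 UMIs in Sst cells against 1160 in cells without Sst, and of 1538 UMIs in Reln cells against 1115 in cells without Reln, and the part of depth in the joint counts was not tested. Among the cells of ASO mice 9 of 18 Sst cells held Reln, and among those of PBS mice 3 of 7 did. Npy, which encodes neuropeptide Y, was found in 13 cells, of which 8 held Reln and 5 held Sst. A cell of ASO replicate 1 and a cell of PBS replicate 1 held all of Sst, Npy and Reln. Npy shared no cell with Vip, Cck, Calb2 or Penk.

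Calb2, which encodes the calcium-binding protein calretinin, was found in 15 cells, and 8 of these held Vip. Among the 18 Vip cells 44.4% held Calb2, against 8.05% of the 87 cells without Vip, at median depths of 913.5 UMIs in Vip cells and 1277 UMIs in the others. Penk, which encodes the precursor of the enkephalins, was found in 10 cells, of which 7 held Calb2 and 5 held Vip. The 4 cells with all of Vip, Calb2 and Penk were 3 cells of ASO replicate 1 and 1 cell of PBS replicate 3. Penk shared no cell with Sst, Npy or Reln. In the ASO mice 6 of 12 Vip cells held Calb2, and in the PBS mice 2 of 6 did.

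Cnr1, which encodes the presynaptic receptor CB1, was found in more Interneuron cells than the other 9 genes, in 39 of 105 (37.1%) with 123 UMIs. It accompanied Calb2 in 8 cells, and Sst, Vip, Cck and Reln in 7 cells each. Of the 14 cells with Cck, which encodes cholecystokinin, 7 held Cnr1, against 35.2% of the 91 cells without Cck, and 4 held Vip. A single cell of ASO replicate 1 carried 36 Cnr1 and 12 Cck UMIs. That cell held 36 of the 123 Cnr1 UMIs of the class, and the next highest cell held 13.

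Pvalb, which encodes parvalbumin, was found in 5 cells, and 12 of its 15 UMIs lay in 2 cells of PBS replicate 3. The 2 cells of ASO replicate 1 that held Pvalb, with 1 UMI each, also held Sst. Tac1, which encodes the precursor of substance P, had 4 UMIs in 3 cells, none of them from an ASO mouse, and 2 of these cells held Sst. The Interneuron class of this table therefore held few cells with Pvalb and fewer with Tac1, and differences of these genes between the groups were not detectable there at this depth.

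**Figure D2:**
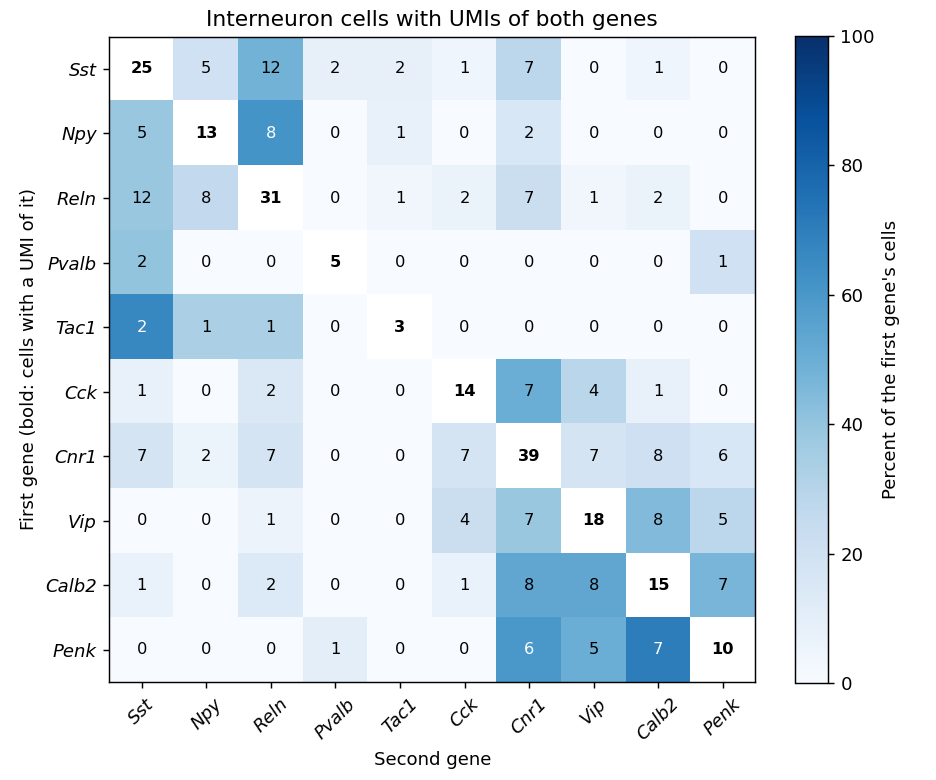
Each square gives the number of Interneuron cells with UMIs of both genes, and the bold diagonal the number of cells with the gene itself. The colour is the percent of the cells of the gene at the left that also held the gene below. Sst and Reln shared 12 cells, Npy and Reln 8, Vip and Calb2 8, Calb2 and Penk 7, and Sst and Vip 0.

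Of the 105 cells, 14 held none of the 10 genes, 33 held 1, 36 held 2, 20 held 3 and 2 held 4. To set the groups side by side at equal depth, the expected detection after thinning each cell to 500 UMIs was computed, which lost no cell. At that depth 40.5%, 33.2% and 16.6% of the Interneuron cells of the ASO mice held at least 2 of the genes, against 39.6%, 20.9% and 28.8% in the PBS mice. The groups overlapped, with means of 30.1% ± 12.3 in ASO mice and 29.8% ± 9.35 in PBS mice (SD, n = 3 each), and the exact two-sided permutation p was 0.9. Without thinning the means were 57.2% in ASO mice and 49.3% in PBS mice. With 3 mice against 3, this exact test cannot give a p below 0.1.

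For single genes, the share of Interneuron cells with Sst at 500 UMIs was 17.7%, 19.5% and 19.0% in the ASO mice, against 14.3%, 11.9% and 16.4% in the PBS mice. Each ASO mouse lay above each PBS mouse, and the difference of 4.51 percentage points had an exact two-sided permutation p of 0.1, the smallest that 3 against 3 mice can give, and an adjusted p of 1.0 over the 10 genes. Without thinning, so at unequal depth, the Sst shares were 25.0%, 22.7% and 37.5% in the ASO mice, against 16.7%, 15.4% and 21.4% in the PBS mice. The groups also did not overlap with doublets kept or in neuron cells with a GABA gene. Where at least 2 Sst UMIs were asked of a cell, without thinning, the means were 16.2% in ASO mice and 15.4% in PBS mice, and the groups overlapped. Under that same rule Cck did not overlap, with 3.57%, 4.55% and 6.25% in the ASO mice against 25.0%, 7.69% and 7.14% in the PBS mice (exact two-sided permutation p = 0.1, adjusted p = 1.0 over the 10 genes). These are shares of 28, 22 and 16 cells in the ASO mice and 12, 13 and 14 in the PBS mice. Very few cells passed the rule in any mouse, so the number of Interneuron cells of a mouse weighs on its share. For the other 9 genes the thinned shares of the groups overlapped, with differences between -7.15 points for Cck and 4.14 points for Reln and exact permutation p values from 0.4 to 1.0. Vip was absent from the 13 Interneuron cells of PBS replicate 2, and was present in cells of the other 5 mice.

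The levels of the 10 genes over the 17 classes of the authors are given next, each gene read across classes. Free RNA gives UMIs in cells that do not express a gene, so endothelial cells, a class that should lack these transcripts, serve as a background, at a median of 1026 UMIs per cell against 1176 in Interneuron cells. A UMI was present in 0.332% of 1809 endothelial cells for Sst, 0.111% for Npy and for Pvalb, 0.276% for Calb2 and for Cnr1, 0.166% for Tac1, 0.0553% for Penk, 1.71% for Cck, 2.27% for Reln, and 0 cells for Vip. The authors' classes were made from the same cells, so a level in one class against another is given without a test. In summed cells, fewer cells of a type and less RNA per cell cannot be told apart.

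**Figure D3:**
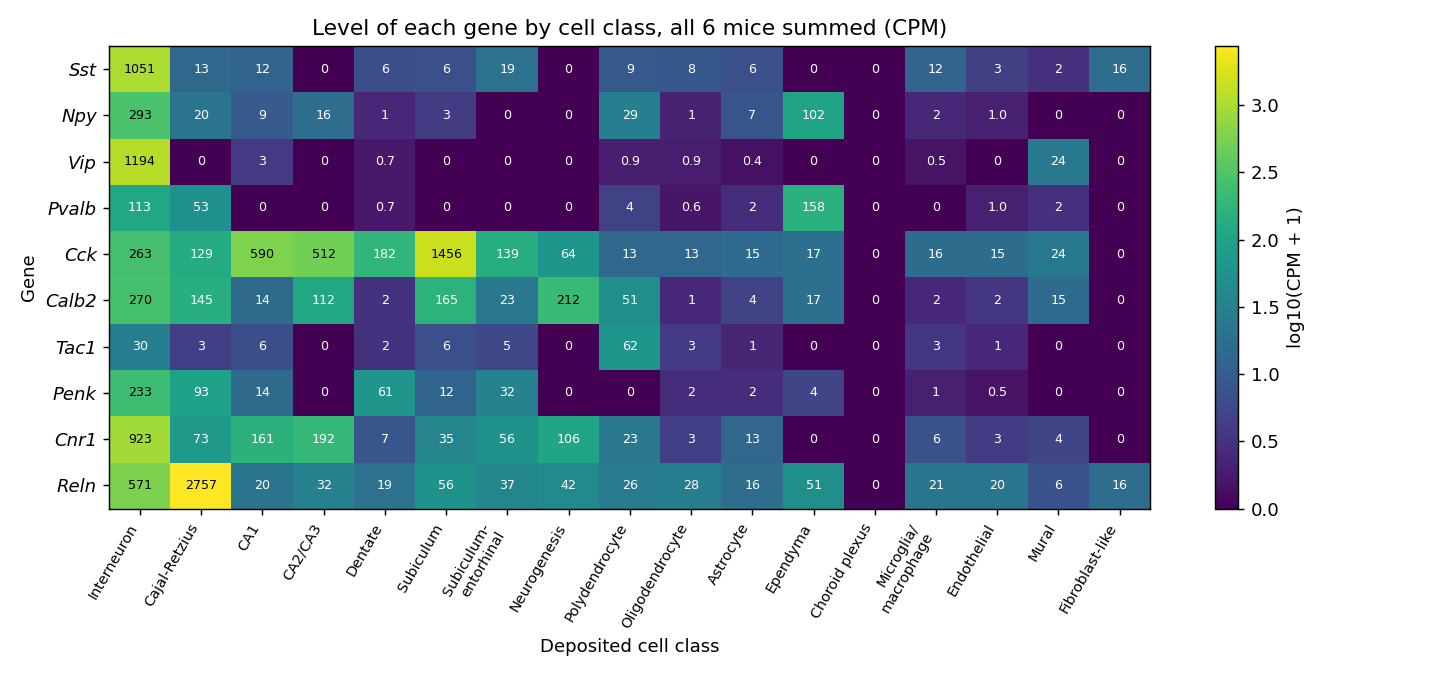
Rows are the genes, columns the authors' cell classes, and each number is the CPM of all 6 mice summed, with log10(CPM + 1) as the colour. Sst and Vip reach 1051 and 1194 CPM in Interneuron, Reln reaches 2757 CPM in Cajal-Retzius, Cck reaches 1456 CPM in Subiculum, and Tac1 reaches 62 CPM in Polydendrocyte.

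Sst and Vip were the genes most nearly limited to the Interneuron class. Interneuron cells held 57.6% of the 243 Sst UMIs and 89.3% of the 178 Vip UMIs of the library. Sst in this class had 26, 65 and 16 UMIs (796, 2129 and 722 CPM) in the ASO mice, against 10, 13 and 10 UMIs (678, 769 and 618 CPM) in the PBS mice. ASO replicate 2 stood far above the others, and the remaining 5 mice lay close together. The next highest class for Sst was the subicular and entorhinal neurons at 18.5 CPM, from 4 UMIs. Outside the class, a single oligodendrocyte of PBS replicate 2 held 10 Sst UMIs, and a single mural cell of ASO replicate 3 held 10 Vip UMIs.

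Vip in the Interneuron class had 61, 32 and 2 UMIs in the ASO mice, against 29, 0 and 35 UMIs in the PBS mice. High and low mice occurred in both groups. Npy had 39 UMIs in Interneuron cells (293 CPM), with 11, 15 and 1 in the ASO mice against 4, 8 and 0 in the PBS mice. Unlike Vip, Npy had more UMIs outside the class than within it.

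The ependymal class, cells that line the ventricles and bear motile cilia, held Npy at 102 CPM (24 UMIs in 19 of 188 cells, 10.1%) and Pvalb at 158 CPM (37 UMIs in 31 cells, 16.5%). These were 45.1% of all Pvalb UMIs, more than the 15 UMIs of the Interneuron class, where Pvalb stood at 113 CPM. All 31 ependymal cells with Pvalb had a UMI of an ependymal marker (Foxj1, Ccdc153, Tmem212 or Rarres2), as did 156 of the 157 without Pvalb. None of the 31 had a UMI of Gad1, Gad2 or Slc32a1, and 3 of the 157 had one. These shares describe the class and do not set the Pvalb cells apart. Pvalb in ependymal cells had 10, 2 and 12 UMIs in the ASO mice, against 9, 3 and 1 in the PBS mice, and both groups held high and low mice. Ranges over mice of Pvalb, 30.4 to 442 CPM in ependymal cells, included the pooled level in Interneuron cells, so these neighbours in the order were not separated by their spread. At 500 UMIs per cell the share of ependymal cells with Pvalb was 7.63%, against 0.0540% of endothelial cells.

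Oligodendrocyte precursors, deposited as Polydendrocyte, held 66 of the 100 Tac1 UMIs of the library, in 59 of 945 cells (6.24%). Tac1 there had 80.1, 82.3 and 62.3 CPM in the ASO mice, against 47.4, 79.8 and 32.1 CPM in the PBS mice, and the groups overlapped. Every one of these 59 cells had a UMI of a precursor marker (Pdgfra, Cspg4, Olig1, Olig2 or Gpr17), as did 877 of the 886 precursors without Tac1. A UMI of Gad1, Gad2 or Slc32a1 was present in 5 of the 59 (8.47%, against 6.21% of the precursors without Tac1). Grin3a, a subunit gene of NMDA-type glutamate receptors, was the gene whose level over the classes was most like that of Tac1 (Pearson r = 0.893 over 17 classes, with depth and base composition shared by all genes of a class). Polydendrocytes also held Calb2 in 51 cells (5.40%, 51.0 CPM) and Npy in 29 cells (3.07%, 29.3 CPM), and all of these cells had a precursor marker. So did 885 of the 894 precursors without Calb2 and 907 of the 916 without Npy, so the marker does not set these cells apart. Penk had no UMI in the 945 precursors, which allows a share of up to 0.317% of cells with a UMI.

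Cck had its highest level in the Subiculum class of excitatory neurons, with 495 UMIs in 175 of 268 cells (65.3%) and 1456 CPM. CA1 followed at 590 CPM, with Cck in 37.2% of cells, and CA2 and CA3 neurons at 512 CPM, with 36.2%. The Interneuron class followed at 263 CPM and the dentate class at 182 CPM, with Cck in 15.5% of 1122 cells. Over mice the range was 1007 to 2002 CPM in Subiculum, 244 to 950 CPM in CA1 and 0 to 598 CPM in CA2 and CA3. Subiculum was thus above CA1 in every mouse, while CA1, CA2 and CA3, and Interneuron overlapped. Cells with Cck in Subiculum held excitatory markers in 82.3% and Gad1, Gad2 or Slc32a1 in 0 of 175. In Subiculum cells without Cck these were 69.9% and 0 of 93. Interneuron cells held 2.78% of all 1257 Cck UMIs.

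Cnr1 was highest in the Interneuron class at 923 CPM, which was 36.7% of its 335 UMIs. It had 53, 18 and 7 UMIs there in the ASO mice, against 12, 25 and 8 UMIs in the PBS mice, without separation. CA2 and CA3 neurons followed at 192 CPM, with Cnr1 in 12 of 47 cells, and CA1 neurons at 161 CPM, with Cnr1 in 49 of 285 cells. Of those 49 CA1 cells, 40 had an excitatory marker (81.6%, against 81.8% of the 236 without Cnr1). A UMI of Gad1, Gad2 or Slc32a1 was present in 0 of the 49 and 4 of the 236. Dentate neurons stood at 7.22 CPM, near the 2.99 CPM of endothelial cells. In CA1 Cnr1 had 253, 157 and 140 CPM in the ASO mice, against 147, 109 and 70.8 CPM in the PBS mice, and the lowest ASO mouse lay below the highest PBS mouse.

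Reln had 67.8% of its 1231 UMIs in the Cajal-Retzius class, where it was present in 212 of 303 cells (70.0%). The level there was 3376, 2103 and 1826 CPM in the ASO mice, against 3291, 2333 and 2867 CPM in the PBS mice. ASO replicate 1 was the highest of the 6 mice and the other 2 ASO mice were the lowest. Interneuron cells followed at 571 CPM, with a range of 371 to 746 CPM over mice, below the lowest mouse of the Cajal-Retzius class. In all other classes Reln stood at 55.9 CPM or less, and its share of cells in oligodendrocytes (2.97%) and in polydendrocytes (2.33%) was near the 2.27% of endothelial cells. The Cajal-Retzius class also held choroid plexus markers at 33965 CPM, against 2568 CPM in Interneuron cells. By mouse they summed to 22708, 40571 and 98802 CPM in the ASO mice, against 34637, 12139 and 21254 CPM in the PBS mice. Their part in the Reln level of the class was not tested.

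Reln also divided the Cajal-Retzius class. Of the 212 cells with Reln, 201 (94.8%) had a Cajal-Retzius marker (Lhx1, Lhx5, Trp73, Ndnf, Nhlh2 or Cxcl14), against 21 of the 91 cells without it (23.1%). For Trp73 alone, which encodes the transcription factor p73, the counts were 103 of 212 (48.6%) and 4 of 91 (4.40%). A UMI of Gad1, Gad2 or Slc32a1 was present in 3 of the 212 cells (1.42%) and 12 of the 91 (13.2%). Calb2 was found in 33 cells of this class, of which 28 had a Cajal-Retzius marker, against 194 of the 270 without Calb2. Penk was found in 16, of which 13 had one, against 209 of the 287 without Penk. Of the 4 cells with Pvalb, 3 had a GABA gene and 1 a Cajal-Retzius marker.

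Calb2 had a broad pattern, with 270 CPM in Interneuron cells, 212 CPM in the Neurogenesis class, 165 CPM in Subiculum, 145 CPM in Cajal-Retzius cells and 112 CPM in CA2 and CA3. The ranges over mice of these classes overlapped. In the Neurogenesis class 6 of 40 cells held Calb2, and all 6 had a general neuron marker, against 13 of the 34 cells without it. In Subiculum 15 of 268 cells held 56 Calb2 UMIs, with 23, 25 and 0 UMIs in the ASO mice against 5, 2 and 1 UMIs in the PBS mice. An excitatory marker was present in 4 of these 15 cells (26.7%), against 205 of the 253 others (81.0%), and Gad1, Gad2 and Slc32a1 had no UMI in any cell of the class. Penk had 48.6% of its 173 UMIs in dentate neurons and 17.9% in Interneuron cells.

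Differences between ASO and PBS mice were tested by edgeR's quasi-likelihood test on UMIs summed per mouse, first over all cells. Of 14002 genes tested, 1 passed an adjusted p of 0.05 (0.00714%), and it was not among the 10 genes, which were all tested. At an unadjusted p under 0.05 there were 3 of the 10, against 4.07% of all genes tested, and DESeq2 and limma voom called 0 of the 10. The levels of ASO and PBS mice overlapped for all 10, while 9.02% of all genes had no overlap. Of the 10, 6 had higher and 4 lower levels, against 50.5% higher among all genes tested, with a median log2 fold change of 0.26, against 0.00 over all genes.

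Penk, Reln and Cck had the smallest p values over all cells. Penk stood at 7.94, 13.2 and 2.49 CPM in the ASO mice, against 19.3, 9.75 and 20.1 CPM in the PBS mice, and the groups overlapped (log2 fold change -1.02, SE 0.373, edgeR adjusted p = 0.999, unadjusted 0.0142). Reln stood at 94.0, 53.1 and 59.8 CPM in the ASO mice, against 126, 75.8 and 103 CPM in the PBS mice, with a log2 fold change of -0.53 (edgeR adjusted p = 0.999, SE 0.199). Cajal-Retzius cells, its main source, numbered 136 of 6672 cells in ASO mice (63, 39 and 34 by mouse) and 167 of 5944 cells in PBS mice (57, 47 and 63). Within that class the log2 fold change of Reln was -0.14 (SE 0.277, edgeR adjusted p = 0.980), too imprecise to exclude a change as large as that over all cells. The lower Reln of the whole library was seen beside fewer Cajal-Retzius cells, and the part of cell numbers in it was not tested. Cck stood at 71.7, 119 and 127 CPM in the ASO mice, against 46.5, 94.8 and 75.6 CPM in the PBS mice, at a log2 fold change of 0.53 (edgeR adjusted p = 0.999, SE 0.227). Subiculum, its highest class, held 51, 45 and 85 cells of the ASO mice, against 28, 37 and 22 of the PBS mice. Within Subiculum the log2 fold change of Cck was -0.27 (SE 0.293). Dentate neurons, the class with the most Penk UMIs, numbered 209, 143 and 149 in the ASO mice, against 169, 185 and 267 in the PBS mice. The part of these cell numbers in the Cck and Penk values was not tested.

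The other 7 genes had log2 fold changes over all cells between -0.52 for Pvalb and 0.64 for Sst, with adjusted p values of 0.999. Sst stood at 11.1, 34.9 and 17.4 CPM in the ASO mice, against 8.46, 18.6 and 12.7 CPM in the PBS mice. Beside this, the share of Interneuron cells was higher in each ASO mouse than in each PBS mouse, as given above with other classes that did not overlap. Its part in the Sst level was not tested.

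**Figure D4:**
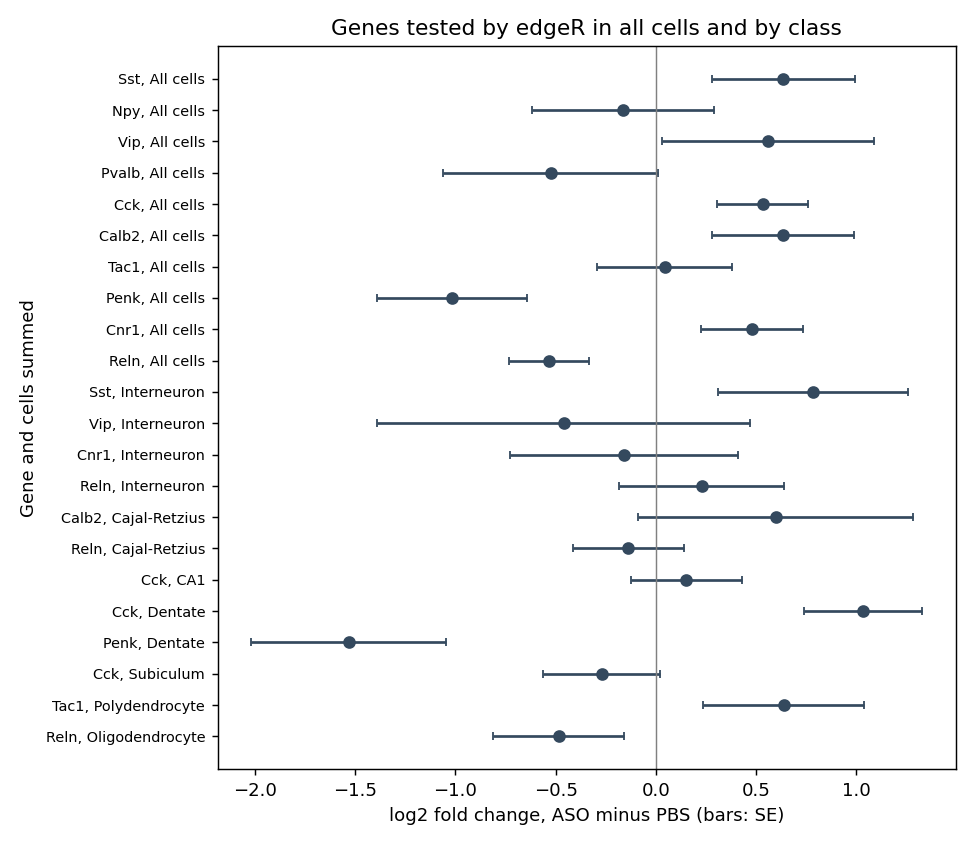
Points are log2 fold changes (ASO minus PBS) of each gene that passed the filter on low counts, over all cells and by class, and bars are standard errors. None of the 22 tests passed an adjusted p of 0.05, and the points farthest from 0 are Penk (-1.53) and Cck (1.03) in dentate neurons.

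By class, 13 classes had at least 10 cells in every mouse and were fitted. The filter on low counts left 12 tests of the 10 genes, so most pairs of gene and class could not be tested at this depth. None passed an adjusted p of 0.05, and 2, both in dentate neurons, had an unadjusted edgeR p under 0.05, where 3.32% of all dentate genes did, while DESeq2 and limma voom also called 0. The share of all tested genes called was 0.00% in Interneuron, Cajal-Retzius, CA1 and dentate cells, 0.188% in Subiculum, 0.238% in oligodendrocytes and 0.0447% in Polydendrocyte. Passing the filter depended on the group in which a gene was high, so the tested pairs do not stand for all pairs.

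In the Interneuron class 4 of the 10 genes were among the 218 genes tested. The log2 fold change of Sst was 0.78 with an SE of 0.472 (edgeR adjusted p = 0.749), and it was 0.19 without ASO replicate 2, the mouse with the cell of 47 Sst UMIs. It was 0.23 for Reln (SE 0.411), -0.16 for Cnr1 (SE 0.570) and -0.46 for Vip (SE 0.933), at edgeR adjusted p values between 0.946 and 0.972. The sign of Cnr1 turned with no filter on low counts, and that of both Cnr1 and Vip when all neuron cells with a GABA gene were taken. Most cells of that set lay outside the Interneuron class, as given above. Prox1, the one dentate marker with UMIs in the class and also a gene of some interneurons, made the summed dentate list 90.3 to 197 CPM in ASO mice and 0 to 61.8 CPM in PBS mice (C1ql2, C1ql3, Dsp and Rasl10a were at 0), and its part in these values was not tested.

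Dentate neurons gave the 2 pairs with the smallest p values. Cck, which was present in 102 of 501 dentate cells of ASO mice and 72 of 621 of PBS mice, stood at 164, 416 and 215 CPM in the ASO mice, against 55.3, 135 and 171 CPM in the PBS mice. ASO replicate 2 was highest and PBS replicate 1 lowest, and ASO replicate 1 lay just below PBS replicate 3, so the groups overlapped. The log2 fold change was 1.03 (SE 0.295, edgeR adjusted p = 0.9998, unadjusted 0.00126), and it was 0.57 without ASO replicate 2. Within 3 sets of 2 mice, 1 of each group, ranked by the ratio of the mitochondrial transcripts mt-Rnr2 and mt-Cytb, Cck was higher in the ASO mouse by 1.62, 1.53 and 0.33 on the log2 scale. With a term for these sets the edgeR adjusted p was 0.00772, which is a call, in a fit where 0.0790% of 5064 genes were called. Across the alternatives, the adjusted p of Cck in this class lay between 0.00772 and 1.0.

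Penk in dentate neurons had a fold change of the opposite sign. It stood at 20.5, 46.2 and 27.6 CPM in the ASO mice (5, 8 and 5 UMIs), against 175, 65.4 and 38.3 CPM in the PBS mice (38, 15 and 13 UMIs). PBS replicate 1 was far above the rest, and PBS replicate 3 lay below ASO replicate 2. The log2 fold change was -1.53 (SE 0.485, edgeR adjusted p = 0.9998, unadjusted 0.00321), and it was -0.71 without PBS replicate 1. Within the 3 sets the log2 ratio of the ASO over the PBS mouse was -0.50, -3.14 and -0.47 for Penk, and with the term for sets the edgeR adjusted p was 0.0724. Penk, at chr4:4133531-4138819 of GRCm38, overlaps A830012C17Rik on the opposite strand, and since no source used here gives the use of strand in counting, reads of the pair may be mixed.

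Marker lists in the dentate class were compared between the groups beside these values. Dentate markers summed to 1600 to 1968 CPM in ASO mice and 1679 to 1957 CPM in PBS mice, and Interneuron markers to 149 to 164 CPM in ASO mice and 153 to 187 CPM in PBS mice, so both overlapped. Oligodendrocyte markers (5 of 5 with UMIs) summed to 726 to 797 CPM in ASO mice and 461 to 680 CPM in PBS mice. Cajal-Retzius markers (5 of 6 with UMIs, Nhlh2 at 0) summed to 17.3 to 45.1 CPM in ASO mice and 0 to 8.84 CPM in PBS mice. Neither of the last pair overlapped, and their part in the Cck and Penk values was not tested.

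**Figure D5:**
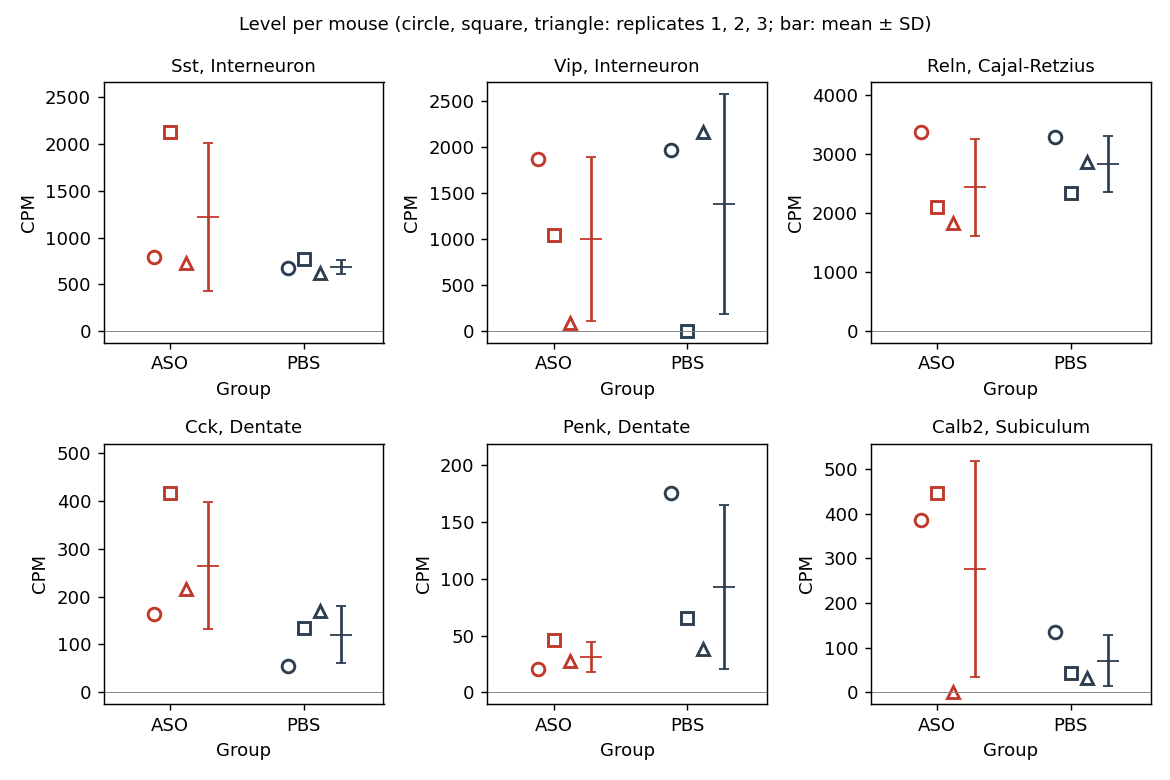
Each panel shows 1 gene in 1 class, with the CPM of 3 ASO mice at the left and 3 PBS mice at the right, and the mean ± SD beside them. ASO replicate 2 is far above the other mice for Sst, PBS replicate 1 is far above the others for Penk, and ASO replicates 1 and 2 are above the other 4 mice for Calb2 in Subiculum.

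Among the remaining tests by class, Cck had log2 fold changes of 0.15 (SE 0.277) in CA1 and -0.27 (SE 0.293) in Subiculum, and Calb2 of 0.60 (SE 0.687) in Cajal-Retzius cells. Tac1 had 0.64 (SE 0.402) in Polydendrocyte and Reln -0.48 (SE 0.326) in oligodendrocytes. The edgeR adjusted p values of these 5 were between 0.873 and 0.997. Some marker lists did not overlap in these classes. In CA1, neuron markers summed to 10086 to 10443 CPM in ASO mice and 8476 to 9970.5 CPM in PBS mice. Fibroblast-like markers in Cajal-Retzius cells summed to 194 to 542 CPM in ASO mice and 124 to 170 CPM in PBS mice. In oligodendrocytes, Interneuron markers were lower in ASO mice, and excitatory and ependymal markers were higher. The part of these lists in the 5 values was not tested. Whether the Cck difference in dentate neurons differed from that in CA1 or Subiculum was not tested. Calb2 in Subiculum did not pass the filter with all mice. ASO replicate 3 had no Calb2 UMI in that class, and it was the ASO mouse with the most Subiculum cells, 85 against 51 and 45. Without that mouse Calb2 passed with a log2 fold change of 2.503 and an edgeR adjusted p of 0.00157, in a fit where 0.253% of genes were called. The call thus depends on leaving out the ASO mouse that goes against it. In the other fits without 1 mouse where Calb2 was tested, its adjusted p was 0.447 or more. Beside this, neuron markers in Subiculum summed to 12789 to 13584 CPM in ASO mice and 11160 to 12531 CPM in PBS mice, and mural cell markers (3 of 5 with UMIs, Kcnj8 and Pdgfrb at 0) to 36.6 to 71.3 CPM in ASO mice and 0 to 27.2 CPM in PBS mice. Neither list overlapped, and their part in the Calb2 value was not tested.

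Genes around the 10 were counted in 5 lists. Of 20 genes of GABA synthesis and interneuron transcription factors, 15 were tested over all cells, with 7 higher, 8 lower and 0 called (2 at an unadjusted p under 0.05), and a median log2 fold change of -0.06, against 0.00 over all genes. In the Interneuron class 5 of the list were tested, with a median of -0.09, against -0.02 over all genes tested there. Adarb2, which marks interneurons that arise in the caudal ganglionic eminence, was at -0.83 (SE 0.363, edgeR adjusted p = 0.676), and Gad1 at -0.30 (SE 0.332).

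Of 17 other interneuron peptides and subtype genes, 8 were tested over all cells, with 4 higher, 4 lower and 0 called (1 at an unadjusted p under 0.05), and a median of 0.01. That 1 was Ndnf, which encodes a secreted factor of neurogliaform and Cajal-Retzius cells, at 41.4 ± 8.18 CPM in ASO mice and 67.2 ± 13.4 CPM in PBS mice after TMM scaling (SD, n = 3 each). Its log2 fold change was -0.68 with an SE of 0.178 (edgeR adjusted p = 0.892). Of 17 receptors for the products of the 10 genes, 12 were tested, with 7 higher, 5 lower and 0 called (0 at an unadjusted p under 0.05), and a median of 0.04. Npy1r, a neuropeptide Y receptor gene, had 0.36 (SE 0.211), and Dab1, the adaptor of reelin signalling, -0.14 (SE 0.131).

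All 13 genes of neuropeptide processing and dense core granules were tested over all cells, with 9 higher, 4 lower and 0 called (0 at an unadjusted p under 0.05), and a median of 0.12. Cpe, a carboxypeptidase that trims prohormones, was at a log2 fold change of 0.30 (SE 0.166), and Pam, which amidates peptides such as Vip and Npy, of -0.02 (SE 0.123). All 8 genes of endocannabinoid synthesis and turnover were tested, with 2 higher, 6 lower and 0 called (0 at an unadjusted p under 0.05), and a median of -0.03. Abhd6, a lipase that breaks down the ligand 2-arachidonoylglycerol, had -0.25 (SE 0.139). The edgeR adjusted p values of the genes named from these 2 lists were 0.999.

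The genes most like each of the 10 in level over the 17 classes were named by the correlation of log2(CPM + 1), as a description. Cck was most like Grin2b (Pearson r = 0.954), Cdh12 (0.950) and Celf5 (0.944), all of which are neuronal. Cnr1 was most like Elavl2 (0.893), and Calb2 like B630019K06Rik (0.897). Vip was most like Zw10 (0.742), followed by Gad2 (0.719) and Sst (0.713), all of which were highest in the Interneuron class, while Pvalb was most like Npy (0.806), which had the next highest level in ependymal cells among the 10 genes. Reln was most like Hs3st5 (0.822), Penk like Cntn5 (0.819), Sst like Alg8 (0.792) and Npy like Drosha (0.760). Several of these partners had few UMIs, such as Alg8 with 156, and each class is a single sum of the 6 mice.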

How the data were processed

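The deposited values are raw UMI counts, 1 row per gene and 1 column per cell, and each column name gives the mouse and a class. Builds mm10 and GRCm38 and the tools bcl2fastq and STAR 2.5.0c are named in the submitters' processing notes. No source used here gives the counting program, the annotation or the use of strand. The table held 12823 cells of 569 to 1999 UMIs, at least 501 genes and at most 15.0% mitochondrial UMIs. Because 3′ ends are counted, levels are not divided by gene length and are compared between classes and mice, not between genes.

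Doublets were called per mouse with Scrublet in scanpy 1.11.5, and 207 cells (1.61%) were removed. Counts of each mouse were summed over all cells and by class, for the 13 classes with at least 10 cells in every mouse, and tested in edgeR 4.0.16 under R 4.3.3 (filterByExpr, TMM, glmQLFit, glmQLFTest, two-sided, Benjamini-Hochberg over all genes tested in a fit, threshold 0.05). CPM values printed are of all UMIs of a class unless TMM scaling is named. For shares of cells, the 20 assignments of mice gave an exact permutation test, two-sided. Expected detection at 500 UMIs per cell was computed exactly. The edgeR script was tested on simulated data. A limit from a count of 0 uses 3 cells, and covers counting error only.

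Alternatives were DESeq2 1.42.0, its size factors, limma 3.58.1 voom, no filter, a mitochondrial limit of 10%, doublets kept, at least 20 cells per class, a term for 3 technical sets, cells of any neuron class with a GABA gene, at least 2 UMIs or 3 genes per cell, means over cells, and each mouse left out. The labels do not say that mice were handled separately or pair them, and replicates are numbered in sample order. The 10 genes, the lists, the technical sets and the tests were chosen with earlier results of these data known. Named besides the 10 were up to 3 genes most like each of them among genes with at least 100 UMIs, and up to 4 genes of each list, called ones first and then by UMIs, of which some are printed and 1 is not reported here. Single cells and the 2 sets of companion genes were chosen after their values were seen.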

Additional observations from a re-analysis of the deposited data

How the results depend on the processing

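Over all cells, 0 of the 10 genes were called under every alternative run. By class the count was 0, except 1 in the dentate class with the term for 3 technical sets (Cck, log2 fold change 1.08) and 0 to 1 in Subiculum with each mouse left out (Calb2, without ASO replicate 3). These fits differ in samples or terms, and the cause was not tested. Classes with fewer than 20 cells in a mouse, Interneuron among them, gave no value under that limit, nor did Interneuron with a mitochondrial limit of 10%. Log2 fold changes turned sign over all cells for Npy with the 10% limit (0.0061), and in the Interneuron class for Cnr1 without the filter (0.17) and in neuron cells with a GABA gene (0.64), and for Vip with limma voom (0.75) and in neuron cells with a GABA gene (0.50). The set with a GABA gene, used here and for shares below, held 48, 36 and 32 cells of the ASO mice. Of the PBS mice it held 34, 41 and 43 cells. Only 39.3% of the set were Interneuron cells, and most of the others were dentate neurons. The part of this mix of cells in the turned signs was not tested. With each mouse left out, ranges that crossed 0 over all cells were -1.15 to 0.28 for Pvalb, -0.97 to 0.25 for Npy, -0.17 to 0.33 for Tac1 and -0.0103 to 1.11 for Vip. In classes they were -0.93 to 0.40 for Cnr1 and -1.13 to 0.10 for Vip in Interneuron and -0.16 to 0.57 for Cck in CA1. None of these was past the threshold. Differences in shares of Interneuron cells (ASO minus PBS, percentage points) turned sign without thinning for Npy (2.55), at 2 UMIs or more for Vip (-0.51), for 3 or more genes per cell (-2.94), and in neuron cells with a GABA gene for Npy (1.41), Penk (1.34) and Cnr1 (2.87). With each mouse left out they ran from -5.23 to 1.30 for Npy, -6.07 to 5.88 for Vip, -4.64 to 1.91 for Pvalb, -1.89 to 4.94 for Calb2, -3.90 to 4.27 for Penk, -8.03 to 0.72 for Cnr1 and -4.88 to 7.10 for 2 or more genes. The sign was kept for Sst (3.38 to 5.601), Reln (0.79 to 10.1), Cck (-11.6 to -1.004) and Tac1 (-5.33 to -1.56). Levels by class moved by less than the spread between mice under means over cells and with doublets kept. No paired analysis was possible because the labels give the groups no shared replicate numbers. The technical sets are not such a pairing: they come from a ratio measured in the libraries, although each of them holds 2 mice that were given the same number in sample order. No label names these sets, and whether the ratio reflects handling was not tested, so the fits with that term are not a paired design. With 12 to 28 Interneuron cells per mouse, a share rests on few cells, and 1 cell with many UMIs can set the level of Sst or Cnr1 in a mouse.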

Other observations

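Single cells outside the expected classes held several UMIs of an interneuron peptide. A mural cell of ASO replicate 3 held 10 Vip UMIs with 4 of Calb2 and 3 of Cck, an oligodendrocyte of PBS replicate 2 held 10 Sst UMIs, and a Cajal-Retzius cell held 6 Npy UMIs. In the subicular and entorhinal class a single cell held all 7 Penk UMIs, and in Subiculum a single cell held all 4. These cells were not called doublets, and whether they were doublets below the caller's reach was not tested. In the same subicular and entorhinal class, which had too few Cck UMIs for the test, Cck stood at 197, 124 and 236 CPM in the ASO mice (9, 6 and 7 UMIs), against 88.5, 115 and 38.1 CPM in the PBS mice (2, 5 and 1 UMIs), without overlap. This pair was picked from many pairs of gene and class after the values were seen. The share of all genes of that class without overlap was not counted, and over all cells it was 9.02% of the genes tested. In Subiculum, 14 of the 19 Reln UMIs came from PBS replicate 1.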
